A study of Mus musculus with 18 samples.

Results

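Dnase1 and Guca2b are 2 kidney genes whose signal rose steeply between 7 days and 1 month of age. They were taken as every probe set whose single gene symbol in the platform annotation is Dnase1 or Guca2b, which gave 3 of 12488 probe sets and 2 of 8251 genes. Dnase1 has 2 probe sets, 92865_at and 160452_at, and Guca2b has 1, 95569_at. Both genes were chosen because of this rise, so their change with age is described here without a test. Kidney RNA of C57 mice was measured on 18 Affymetrix arrays, each taken here as 1 mouse. The groups were 6 control and 6 Aprt KO mice aged 7 days, and 3 control and 3 Aprt KO mice aged 1 month. The series text gives these genotypes as Aprt+/+ and Aprt-/- and calls the ages newly born and adult; the ages of the sample labels are used here. Aprt encodes adenine phosphoribosyltransferase, and its loss leads to kidney stones of an adenine oxidation product. The labels name no other allele, no agent and no allele design, and they pair each Aprt KO mouse with a control littermate of its own sex, in 9 litters.

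DNase I, the product of Dnase1, is a secreted endonuclease that needs calcium and magnesium and cuts extracellular DNA, including chromatin released by dying cells. Monomeric actin binds and inhibits it, and kidney, pancreas and salivary gland are among its known sources. Guca2b encodes prouroguanylin, the precursor of uroguanylin, a small peptide hormone best known from the intestine and also made in the kidney. Uroguanylin activates guanylate cyclase C, encoded by Gucy2c, which raises cyclic GMP and, in the kidney, favours salt excretion.

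Because both genes rise with age, the letters upstream of their starts are shown first, from RefSeq on GRCm38.p6. Both genes matched the promoter table, Dnase1 with 2 starts that lie 109 bases apart and Guca2b with 1. Both listed starts of Dnase1 lie inside the annotated gene, the first of them 78 bases from its first base. Dnase1 is a protein-coding gene at chr16:4036958-4040024, and Guca2b is a protein-coding gene at chr4:119656601-119658945. The Guca2b stretch is chr4:119658946-119659195, on the minus strand. The Dnase1 stretch is chr16:4036786-4036957, on the plus strand, and stops where the annotated gene begins. Capitals mark the motif matches described after the sequences.
Guca2b: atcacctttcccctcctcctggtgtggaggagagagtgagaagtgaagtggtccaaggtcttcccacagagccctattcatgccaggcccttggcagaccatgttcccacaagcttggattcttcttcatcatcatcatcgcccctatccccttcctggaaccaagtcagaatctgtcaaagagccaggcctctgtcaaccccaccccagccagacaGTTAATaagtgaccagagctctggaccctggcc
Dnase1: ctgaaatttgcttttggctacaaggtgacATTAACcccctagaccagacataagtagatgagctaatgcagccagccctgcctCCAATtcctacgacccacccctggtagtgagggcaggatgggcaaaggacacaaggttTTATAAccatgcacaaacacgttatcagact
The motifs searched were the TATA box core TATAA, the HNF1 half-site GTTAAT, the nuclear receptor half-site AGGTCA, the steroid receptor half-site TGTTCT, the CCAAT box CCAAT and the GC box GGGCGG. Each was sought on both strands in the 250 bases before every listed start, and the motif list was drawn up after these sequences had been seen. Guca2b held GTTAAT 33 bases before its start and none of the other 5 motifs. Dnase1 held GTTAAT on the opposite strand 221 bases before its first listed start. GTTAAT occurred in 6.43% of 32851 such windows on either strand. In Dnase1 a pair of overlapping TATAA matches, 1 on each strand, lay 108 and 109 bases before that start, which is 30 and 31 bases before the annotated gene, and TATAA occurred in 22.8% of windows. CCAAT lay 167 and 15 bases before that start, the second of these beyond the printed stretch, and it occurred in 33.8% of windows. The window of the second Dnase1 start also held AGGTCA 52 bases and TGTTCT 94 bases before it, both inside the annotated gene, motifs present in 14% and 16.1% of windows. Neither gene held GGGCGG, which 32.7% of windows did. These are matches of letters only.

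Some facts of the whole series bear on these genes. Signals were scaled by the submitters so that the trimmed mean was near 500.2 to 500.4 on every array. Both arrays of litter 4 had a highest signal of 10167 and 10767, against 25718 to 51453 on the other 16 arrays. The targeted gene, Aprt, was dim, and its brightest probe set read 41.9 to 148 at 7 days and 52.3 to 110 at 1 month. On 4 arrays this signal lay on the other genotype's side of the midpoint between group medians. They were the controls of litters 1 and 2 and the arrays labelled Aprt KO in litters 4 and 7. In a fit without the filter described below, this probe set read lower in Aprt KO arrays but did not pass. Its log2 difference was -0.58 at 7 days (limma adjusted p = 0.397) and -0.54 at 1 month (limma adjusted p = 0.9997). The other Aprt probe sets changed by 0.10 (SE 0.13) and 0.13 (SE 0.14) at 7 days, and did not pass. At 1 month they changed by -0.12 (SE 0.19) and -0.07 (SE 0.20). The choice of the 4 arrays thus rests on 1 dim probe set. Directions between genotypes therefore run between arrays as labelled, and the results of Guca2b and Dnase1 are given with and without these 4 arrays. The labels used here give no array batch or scan date, so an array batch that coincides with age and age itself cannot be told apart. The labels do not say whether tissue from several mice was pooled, and in whole kidney RNA more cells of a type and more RNA per cell cannot be told apart.

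Dnase1 went from a dim signal at 7 days to a very bright one at 1 month in both genotypes. With probe set 92865_at the 7-day controls read 45.3 at the lowest, 75.8 at the median and 125 at the highest. The 7-day Aprt KO arrays read 19.1, 68.8 and 115 in the same order. At 1 month the controls of litters 7, 8 and 9 read 14925, 14907 and 11371, and their Aprt KO littermates 9280, 10230 and 9703. The ages did not overlap: the lowest 1-month control was 91.3 times the highest 7-day control, and the lowest 1-month Aprt KO array 80.8 times the highest at 7 days.

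The group means of Dnase1 were 80.3 ± 27.6 and 65.2 ± 37.4 at 7 days in controls and Aprt KO mice (SD, n = 6), and 13734 ± 2047 and 9738 ± 476 at 1 month (SD, n = 3). The ratio of the 1-month to the 7-day mean was 171 in controls and 149 in Aprt KO mice. On the log2(signal + 29) scale, where 29 is a pseudocount at the 20th percentile of all signals, the change was 7.01 (SE 0.30) in controls and 6.81 (SE 0.30) in Aprt KO mice. This scale understates changes that start from a dim signal.

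The other Dnase1 probe set, 160452_at, did not show the rise. It read between 5.43 and 16.2 on all 18 arrays. Its group means were 10.3 ± 1.15 and 11.1 ± 1.99 at 7 days (SD, n = 6) and 10.1 ± 0.61 and 11.1 ± 5.39 at 1 month (SD, n = 3), in controls and Aprt KO mice. Its age change on the log2 scale was 0.00 (SE 0.10) in controls and -0.01 (SE 0.10) in Aprt KO mice. All 18 of its signals are below the pseudocount of 29, so the 2 probe sets of Dnase1 disagree, and the gene is represented by the bright one. Which part of the transcript each one reads is not given in the sources used here. With the mean of both probe sets the Dnase1 age change was 3.50 in controls and 3.40 in Aprt KO mice.

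Guca2b also rose with age in both genotypes, from different 7-day levels. The 7-day controls read 23.3 at the lowest, 73.5 at the median and 145 at the highest. The 7-day Aprt KO arrays read 164, 202 and 229. At 1 month the controls of litters 7, 8 and 9 read 1936, 3090 and 4324 and their Aprt KO littermates 1753, 2759 and 3433. In this gene too no 1-month array overlapped the 7-day arrays, with the lowest 1-month control 13.4 times the highest 7-day control and the lowest 1-month Aprt KO array 7.64 times the highest at 7 days.

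The Guca2b means were 76.2 ± 44.1 and 198 ± 25.8 at 7 days in controls and Aprt KO mice (SD, n = 6) and 3117 ± 1194 and 2648.5 ± 846 at 1 month (SD, n = 3). The ratio of the 1-month to the 7-day mean was 40.9 in controls and 13.3 in Aprt KO mice. The change on the log2(signal + 29) scale was 4.80 (SE 0.27) in controls and 3.37 (SE 0.27) in Aprt KO mice. Both genes passed the filter on low signal, a mean of 118.6 over all arrays, through their 1-month arrays: every 7-day group mean of Dnase1 and the 7-day control mean of Guca2b lie below it.

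**Figure D1:**
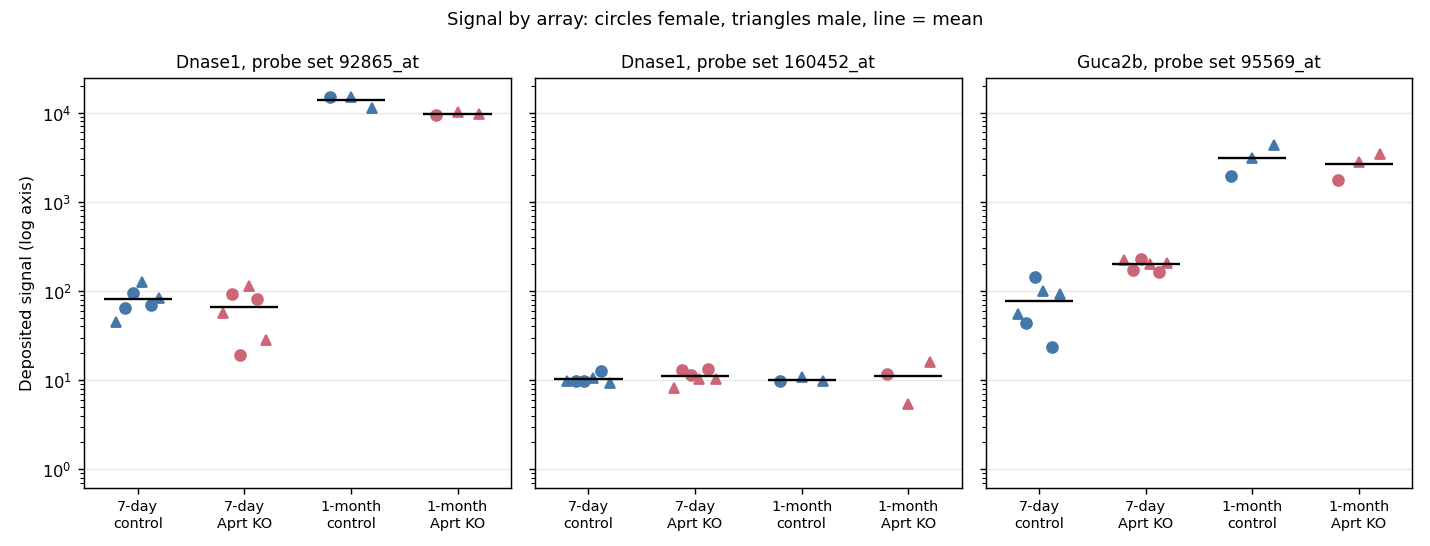
Deposited signal (log axis) of the 3 probe sets on all 18 arrays by group, with circles for females, triangles for males and a line at the mean. Probe sets 92865_at of Dnase1 and 95569_at of Guca2b are higher in every 1-month array than in any 7-day array, 160452_at of Dnase1 stays between 5.43 and 16.2, and at 7 days the Guca2b signal is 164 to 229 in Aprt KO mice against 23.3 to 145 in controls.

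Among 5744 genes past the filter, Dnase1 had the largest log2 rise with age in controls and also the largest in Aprt KO mice. Guca2b ranked 4 in controls and 13 in Aprt KO mice. The first place of Dnase1 in controls rests on its bright probe set. With the mean over probe sets Dnase1 rose by 3.50 in controls, below the 4.80 of Guca2b, and by 3.40 in Aprt KO mice. The controls' order began with Dnase1, then Inmt, an indolethylamine methyltransferase (4.98, SE 0.27), the cytochrome P450 Cyp2e1 (4.90, SE 0.20), Guca2b and the aldo-keto reductase Akr1c21 (4.69, SE 0.30). These 4 genes after Dnase1 lie within 1 SE of their neighbours in the order, while Dnase1 stands apart from them. In Aprt KO mice the same log2 rises were 5.0 for Inmt, 4.04 for Cyp2e1 and 4.44 for Akr1c21. For context, limma called 14.8% of all genes higher at 1 month in controls and 15% in Aprt KO mice; as the genes were chosen on this change, nothing is read from that share. Quantile normalization moved the median age change of all genes by 0.12 on the log2 scale, while the change in controls was 6.97 for Dnase1 and 4.74 for Guca2b.

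**Figure D2:**
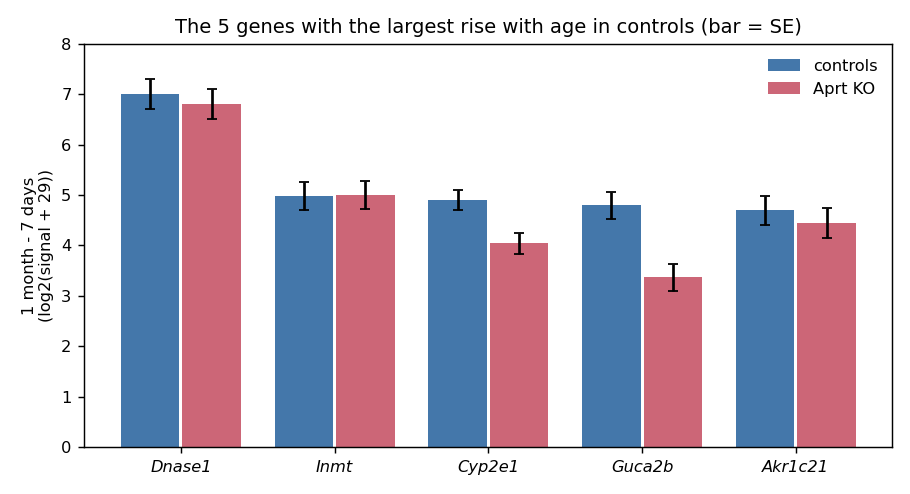
Change from 7 days to 1 month on the log2(signal + 29) scale for the 5 genes with the largest rise in controls, with bars for controls and Aprt KO mice and error bars of 1 SE. Dnase1, read by its bright probe set, is the tallest in both genotypes (7.01 and 6.81), and Guca2b has the largest gap between genotypes among the 5 (4.80 and 3.37).

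At 7 days Guca2b was higher in the Aprt KO mice than in their control littermates. The Aprt KO mean was 2.60 times the control mean, every Aprt KO array lay above every control array, and the Aprt KO mouse was higher in 6 of 6 litters. The littermate ratio of Aprt KO to control signal was 3.95, 4.00 and 1.59 in litters 1, 2 and 3, and 2.01, 7.02 and 2.24 in litters 4, 5 and 6. The ratio of litter 5 rests on a control signal of 23.3, which is below the pseudocount. Among the 7-day Aprt KO arrays the coefficient of variation was 13%, against 57.8% among the controls.

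The 7-day Guca2b difference was 1.21 on the log2(signal + 29) scale (SE 0.21, 95% interval 0.76 to 1.66), a 2.32-fold rise with a limma adjusted p of 0.00198 over all genes tested. In this comparison limma called 2.54% of 5744 genes higher, groups did not overlap with the Aprt KO arrays higher in 2.05% of genes, and all litters were higher in 7.66%. With the litter as a replicate block the Guca2b difference had an SE of 0.145 (limma adjusted p = 0.000173), and limma called 500 genes in either direction in place of 185. With a pseudocount of 112, which damps changes of dim genes, the difference was 0.75 (limma adjusted p = 0.00219). Guca2b was number 40 in the order of 7-day rises, between ceruloplasmin, Cp (1.22, SE 0.19), and the tight junction claudin Cldn4 (1.21, SE 0.23); these 2 genes were named after their values were seen. The 7-day controls also entered the age change on which Guca2b was chosen, and a choice for a large rise favours low values in them. Leaving out those 4 arrays with a contrary Aprt signal, the difference was 1.08 (SE 0.26) and did not pass (limma adjusted p = 0.0618). Without both arrays of litter 4 it was 1.29 (SE 0.24, limma adjusted p = 0.00549).

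Other groups of cells and genes moved at 7 days as well, where limma called 3.22% of all genes in either direction and 0.679% lower. Of 7 myeloid markers 5 passed the filter and all 5 rose in the Aprt KO mice, among them lysozyme Lyz2 (log2 change 2.38, SE 0.27), Cd14 (1.74, SE 0.11), C1qa (1.49, SE 0.17) and Cd68 (1.05, SE 0.13). The summed signal of the 7 was 1878 to 2794 in the 7-day controls and 4677 to 6549 in the 7-day Aprt KO mice, and of the markers that did not pass the filter Itgam stayed between 5.29 and 21.4 on all arrays. Their part in the Guca2b result was not tested. Of 9 thick limb and distal tubule markers 4 fell and 0 rose, with a median log2 change of -0.53, against a median of -0.02 over all genes. The falls were the kallikrein Klk1 (-1.32, SE 0.22), the growth factor Egf (-1.18, SE 0.21), the calcium-binding S100g (-0.70, SE 0.18) and the potassium channel Kcnj1 (-0.41, SE 0.11). With age in controls, Klk1 changed by 2.57 (SE 0.28), Egf by 3.58 (SE 0.26) and Kcnj1 by 0.89 (SE 0.14). S100g changed by 0.05 (SE 0.22) and was not called. Inmt, Cyp2e1 and Akr1c21, beside Guca2b in the order of control rises, had 7-day differences in both directions. These were -0.41 (SE 0.22), 0.58 (SE 0.16) and 0.30 (SE 0.24), and none passed. Of 14 proximal tubule markers only the brush border protease Mep1b changed (-0.99, SE 0.11), and the median was -0.27.

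Dnase1 did not pass the test at 7 days. Its Aprt KO mean was 0.813 of the control mean and the groups overlapped. The Aprt KO mouse was higher in 3 of 6 litters and lower in 3. Litters 1, 2 and 5 had littermate ratios of 1.25, 1.42 and 1.18, litter 4 had 0.921, and litters 3 and 6 had 0.20 and 0.339. The difference was -0.28 on the log2 scale (SE 0.24, 95% interval -0.78 to 0.22), with a limma adjusted p of 0.868, and -0.61 (SE 0.25) without the 4 arrays (limma adjusted p = 0.449). In litters 3 and 6 the Aprt KO signals, 19.1 and 28.1, are below the pseudocount.

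**Figure D3:**
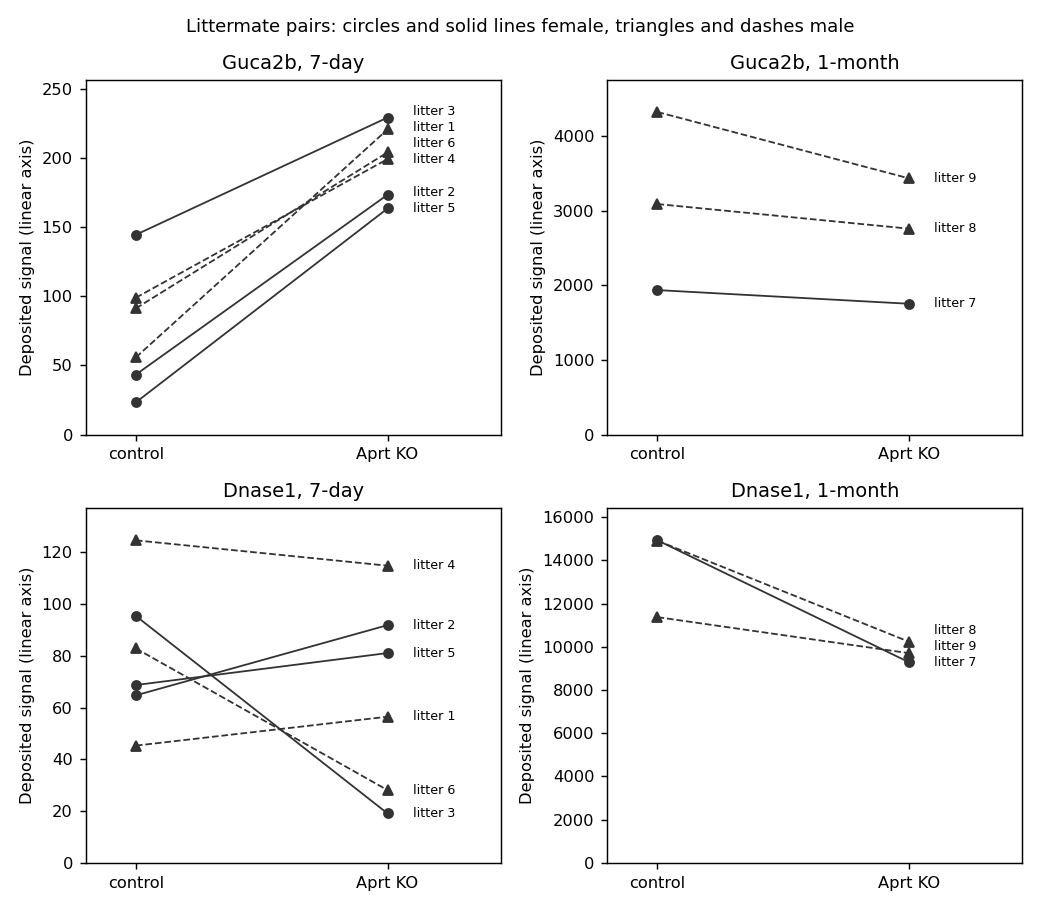
Deposited signal (linear axis, different in each panel) of Guca2b probe set 95569_at and Dnase1 probe set 92865_at in each control mouse and its Aprt KO littermate, joined by a line, at 7 days and 1 month. Guca2b is higher in the Aprt KO mouse of 6 of 6 litters at 7 days and lower in 3 of 3 at 1 month, and Dnase1 is lower in 3 of 6 and in 3 of 3.

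At 1 month both genes read lower in the Aprt KO mouse of each litter, and neither passed the test. Dnase1 was 0.622, 0.686 and 0.853 of the control littermate in litters 7, 8 and 9. The groups did not overlap, with 9280 to 10230 in Aprt KO mice and 11371 to 14925 in controls. The log2 difference was -0.48 (SE 0.34, 95% interval -1.19 to 0.22), with a limma adjusted p of 0.9996, and -0.39 (SE 0.38) without the 4 arrays. In this comparison 1.95% of all genes had Aprt KO arrays wholly below the controls, 13.9% were lower in every litter, and limma called 0.313% in either direction and 0.0174% lower. With the litter as a replicate block limma called 79 genes in place of 18, and neither Dnase1 nor Guca2b was among them. The spread in this fit is pooled with the 7-day arrays, where Dnase1 is dim and varies more on the log2 scale. With the 1-month arrays alone the SE was 0.14, and the difference still did not pass (limma adjusted p = 0.827).

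Guca2b was 0.905, 0.893 and 0.794 of the control littermate in litters 7, 8 and 9. The groups overlapped, since litters differed more than littermates did: the mice of litter 7 were the lowest of their groups and those of litter 9 the highest. The log2 difference was -0.21 (SE 0.30, 95% interval -0.85 to 0.43; limma adjusted p = 0.9996), and -0.25 (SE 0.39) without the 4 arrays. The interval includes a fall as large as 0.85 and a rise of 0.43. The 1-month minus the 7-day genotype difference was -1.43 (SE 0.37) for Guca2b and -0.20 (SE 0.41) for Dnase1. These 2 values contain the controls' change with age, on which the genes were chosen, and they were not tested. At 1 month the summed signal of 9 adrenal, fat, muscle and liver markers was 1385 to 1926 in controls and 2160 to 7066 in Aprt KO mice. The muscle actin Acta1 alone read 7.14 to 3978 in the Aprt KO mice, while the liver genes Alb, Apoa2 and Ttr had lower means there than in controls. Of the 7 that passed the filter 0 were called by genotype, and their part in these values was not tested.

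Sex was compared between litters, since littermates share it, with the litter as a random block. At 1 month Guca2b read 1753 and 1936 in the 2 females and 2759 to 4324 in the 4 males. All of the females come from litter 7, so this sets 1 litter against 2. The log2 difference of males over females was 0.85 (SE 0.43, 95% interval -0.04 to 1.75), with a limma adjusted p of 0.575 in a comparison that called 0.4% of genes. Cyp4b1, a cytochrome P450 among the proximal tubule markers, was the only listed marker of that set called here, higher in males by 1.81 (SE 0.22, limma adjusted p = 0.000445). At 7 days Guca2b read 23.3 to 229 in 6 females and 55.8 to 221 in 6 males (log2 difference 0.23, SE 0.28, limma adjusted p = 0.999).

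Dnase1 did not pass for sex at either age. At 7 days it read 19.1 to 95.4 in females and 28.1 to 125 in males (log2 difference 0.05, SE 0.35, 95% interval -0.69 to 0.79, limma adjusted p = 0.999), in a comparison that called 0.0348% of genes. At 1 month it read 9280 and 14925 in the females, which are littermates of different genotype, and 9703 to 14907 in the males (-0.05, SE 0.53, 95% interval -1.16 to 1.06, limma adjusted p = 0.986).

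**Figure D4:**
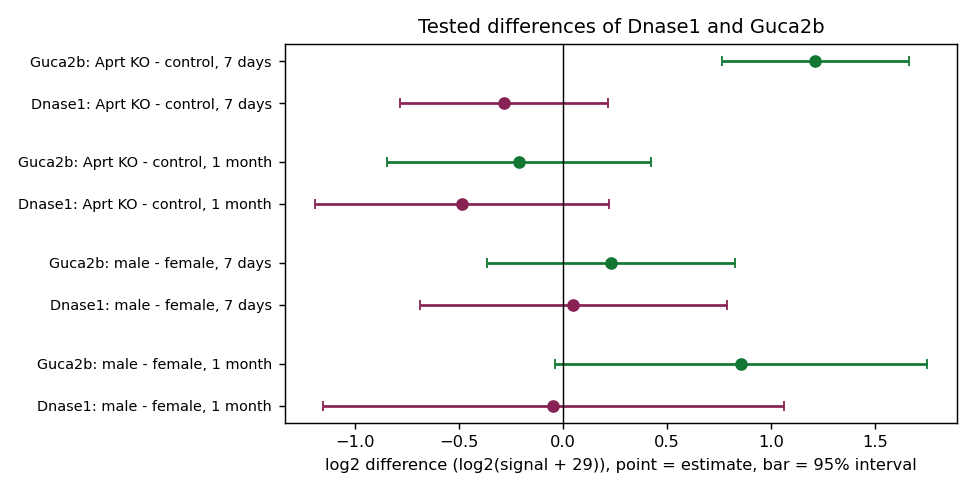
Estimated log2 differences on the log2(signal + 29) scale with 95% intervals, for the genotype comparison and the sex comparison at each age. The interval of Guca2b at 7 days, 0.76 to 1.66, lies wholly above 0, and those of the other 7 comparisons include 0.

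Some other genes of guanylin, natriuretic peptide and cyclic GMP signalling were dim on these arrays. Guca2a, which encodes the related peptide guanylin, read 6.14 to 72.7 on all 18 arrays, and Gucy2c, the receptor of both peptides, read 24.9 to 153. The natriuretic peptide receptor Npr1 read 3.14 to 46.9 and the cyclic GMP-dependent kinase Prkg2 read 2.87 to 7.17. None of these 4 genes passed the filter, so they were not tested, and a dim probe set does not show that a gene is absent. Of 22 listed genes of guanylin, natriuretic peptide and cyclic GMP signalling, 14 had a probe set with a single symbol and 8 passed the filter. For genotype 0 of 8 were called at either age, where limma called 3.22% of all genes at 7 days and 0.313% at 1 month, so the count says little about the list. It had a median log2 change of 0.10 at 7 days and 0.02 at 1 month.

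With age, 3 of these 8 rose and 3 fell in controls, where limma called 14.8% of all genes higher and 26.1% lower. The rises were the phosphodiesterases Pde1a (1.06, SE 0.19) and Pde9a (0.44, SE 0.16), which break down cyclic nucleotides, and the scaffold protein Slc9a3r1 (0.57, SE 0.15), a partner of the sodium-proton exchanger. The falls were the soluble guanylate cyclase subunit Gucy1b1 (-1.10, SE 0.26), Corin, the protease that activates atrial natriuretic peptide (-0.94, SE 0.25), and the clearance receptor Npr3 (-0.65, SE 0.16). In Aprt KO mice Pde1a (0.78, SE 0.19) and Pde9a (0.60, SE 0.16) rose. There Corin (-1.32, SE 0.25), Npr3 (-0.78, SE 0.16) and the chloride channel Cftr (-0.57, SE 0.18) fell, where limma called 15% of all genes higher and 25.3% lower. The median over the 8 was -0.34 in controls and -0.44 in Aprt KO mice, against -0.11 and -0.12 over all genes.

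The other DNA-degrading enzymes were measured beside Dnase1. Dnase1l1, a membrane-linked relative of DNase I, had means of 225 ± 30.4 and 240.2 ± 26.3 at 7 days (SD, n = 6) and 233 ± 26.3 and 258 ± 45 at 1 month (SD, n = 3), in controls and Aprt KO mice. Its log2 change with age was 0.08 (SE 0.15) in controls and 0.12 (SE 0.15) in Aprt KO mice. Dnase1l3, a relative secreted by macrophages and dendritic cells, read 15.3 to 154 and did not pass the filter. Of 16 listed genes 10 had a probe set with a single symbol and 7 passed. With age 0 of 7 rose and 2 fell in each genotype, close to what the shares of all genes (14.8% higher and 26.1% lower in controls, 15% and 25.3% in Aprt KO mice) give for so few genes: the flap endonuclease Fen1 of DNA replication (-1.0, SE 0.15 in controls and -0.97, SE 0.15 in Aprt KO mice) and Dffa, the inhibitor of the apoptotic DNase (-0.36, SE 0.12 and -0.35, SE 0.12). Actb, a cytoplasmic actin, changed by 0.47 (SE 0.23) with age in controls and did not pass (limma adjusted p = 0.114). For genotype 0 of 7 were called at either age, where limma called 3.22% and 0.313% of all genes, so this count too says little. The medians were -0.05 and 0.00.

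The tissue label was checked against its markers. All 14 proximal tubule markers on the array passed the filter, and 10 rose and 0 fell with age in controls, 12 and 0 in Aprt KO mice (median log2 change 0.87 and 1.17), where limma called 14.8% of all genes higher and 26.1% lower in controls and 15% and 25.3% in Aprt KO mice. Against the same shares, among thick limb and distal tubule markers 7 of 9 rose in controls and 9 of 9 in Aprt KO mice. Podocyte markers fell in 3 of 3 cases in each genotype. Among 8 nephron progenitor and cell cycle genes 5 fell in each genotype. These 5 were the cell cycle genes Mki67, Top2a, Cdk1, Pcna and Mcm5. None of the progenitor genes past the filter was called in either genotype. In controls they changed by -0.55 (SE 0.29) for Cited1, -0.0041 (SE 0.21) for Eya1 and 0.30 (SE 0.31) for Pax2. The summed proximal tubule signal ran from 45797 to 76898 in 7-day controls and from 111750 to 131880 in 1-month controls. The part of such shifts in the tubule share of the tissue in the rises of Dnase1 and Guca2b was not tested.

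Tissues known for either product were looked for as well. Of 8 intestine markers 6 were on the array and 0 passed the filter: Cdx2 read 3.26 to 50.7 and the trefoil factor Tff3 22.6 to 45.2 on all arrays, while the apolipoprotein Apoa4 had a mean of 45.1 at 7 days and 315 at 1 month in controls. Of 10 pancreas and salivary gland markers 5 were on the array. The amylase Amy1 read 2.05 to 45.5 and the trypsin Prss2 5.99 to 77.4, while the elastase Cela1 rose with age in controls (1.42, SE 0.21) and in Aprt KO mice (1.59, SE 0.21). The other pancreas gene past the filter, the chymotrypsinogen Ctrb1, had a log2 change of -0.30 (SE 0.24) in controls and was not called. The 5 pancreas and salivary gland markers summed to 1788 to 2927 in 7-day controls and 3948 to 6416 in 1-month controls, most of it Cela1, whose mean signal was 1798 at 7 days and 4608 at 1 month. The 6 intestine markers summed to 118 to 283 and 322 to 546. Their part in the rises of Dnase1 and Guca2b was not tested.

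The genes whose pattern was most like each of the 2 were found by Pearson's r over the 18 arrays on the log2 scale, a description in which age dominates and arrays share their litters. For Dnase1 these were the apoptosis-related lipid droplet gene Cideb (r = 0.98), the mitochondrial outer membrane cytochrome Cyb5b (0.98), the selenium-binding Selenbp1 (0.97), the cysteine desulfurase Nfs1 (0.97) and the aminoacylase Acy3 (0.97). Their log2 rise in controls was 1.06 to 3.26, well under that of Dnase1. For Guca2b they were Errfi1, an inhibitor of the Egf receptor (0.96), the sulfotransferase Sult1d1 (0.96), Slc51a, a subunit of a bile acid and steroid transporter (0.96), Keg1 (0.96) and the phosphatase Acp5 (0.96). These arrays include the 7-day groups in which Guca2b differs. At 7 days Errfi1 had a mean signal of 1580 in controls and 2167 in Aprt KO mice. In the same order Sult1d1 had 571 and 590, Slc51a 247 and 305, Keg1 1307 and 1416, and Acp5 134.5 and 182. Of these 5 genes only Errfi1 was called by genotype at 7 days. Guca2b and Dnase1 correlated with each other at 0.94, and 205 genes for Dnase1 and 69 for Guca2b had an r above 0.9.

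With the group means removed, the 2 genes showed little correlation. Over the deviations of the 18 arrays from their group means, Dnase1 and Guca2b correlated at 0.07. Most of these arrays are 7-day arrays, where Dnase1 was dim (19.1 to 125), and sex was not removed from the deviations. The genes most like Dnase1 in these deviations were Aldh1a2 of retinoic acid synthesis (0.80), the actin-binding Twf2 (0.79), Frat2 (0.76), Cdca7l (0.76) and the corepressor Sin3a (0.73). Those most like Guca2b were the polycomb subunit Eed (0.82), the dynactin subunit Dctn5 (0.82), Atp13a3 (0.82), the tRNA exporter Xpot (0.80) and Tbc1d15 (0.78). Each was picked as among the highest of all genes tested.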

How the data were processed

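The authors deposited 1 table of MAS5 signal intensity on a linear scale for 18 arrays, with the tools GCOS and MAS5 named in the submitters' processing notes and no version or scaling target stated there. Signals were used as deposited and tested as log2(signal + 29). Of 12488 probe sets 10833 had 1 gene symbol, 396 several, 1193 none and 66 were controls. Genes were kept at a mean signal of at least 118.6, the 40th percentile, with the brightest probe set for each, which left 5744 of 8251.

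limma 3.58.1 in R 4.3.3 (lmFit, eBayes with trend) was fitted to all arrays with 4 group means and 1 sex term per age (12 residual degrees of freedom); sex was tested with the litter as a random block (duplicateCorrelation, 0.567). Tests were two-sided with Benjamini-Hochberg adjustment over 5744 genes, called under 0.05. The scripts were tested on simulated data. Figures used matplotlib 3.10.9. The number of arrays limits the precision.

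The labels name the littermates, whose deviations from group means correlated at 0.239 to 0.673 in 9 litters; 12 of 18 arrays correlated best with their littermate. Each array was taken as 1 mouse. The genotype p-values measure the spread between arrays, pooled over both ages. The sex p-values also take in the correlation of littermates, since sex differs only between litters.

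The genes and lists were chosen with earlier results of these data known. Named genes are Dnase1 and Guca2b, the 5 genes most correlated with each over arrays and over deviations from group means, the 5 largest control rises with age, up to 4 called members per list and direction, fixed pathway genes, and Aprt. Some genes were named outside this rule, with their values known. They are Itgam, Acta1, Alb, Apoa2, Cdx2, Tff3, Apoa4, Amy1, Prss2, Ctrb1, Pcna, Cited1, Eya1, Pax2, Cp and Cldn4. Slc9a3, Trex1 and Dnase2a were not analysed here. Alternatives changed the pseudocount, filter, probe set rule, normalization, trend, sex term, litter block, arrays and, chosen after seeing the data, removal of litter 4.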

Additional observations from a re-analysis of the deposited data

Results flagged for a closer look

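Guca2b was higher in the Aprt KO mouse of 6 of 6 litters at 7 days and lower in 3 of 3 at 1 month, so the point estimates had opposite signs at the 2 ages. The 1-month difference itself was -0.21 (SE 0.30, 95% interval -0.85 to 0.43, limma adjusted p = 0.9996), so its direction is not settled, and 13.9% of all genes were lower in every 1-month litter. The 1-month minus the 7-day difference was -1.43 on the log2 scale (SE 0.37), and it was not tested, since it contains the controls' change with age that chose the gene.

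The dim Dnase1 probe set 160452_at read 12.5 on the highest 7-day control array, the control of litter 5, further from the other 5 arrays than the spread of such a group usually allows. This signal is below the pseudocount of 29. Of 6 groups of 6 arrays examined 1 stood out in this way, and chance alone flags about 1 in 20.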

How the results depend on the processing

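The 7-day Guca2b rise kept its direction and its call in 12 of 13 alternatives that did not leave out a single array, and in each of the 18 fits that left out 1 array. It ranged from 0.75 to 1.59 over the former and was 1.04 to 1.43 with an array left out (limma adjusted p up to 0.00793). Many of these fits could not move the estimate. It stayed at 1.21 without the filter, under both other probe set rules and without the trend or the sex term. The litter blocks, the arrays of that age alone and leaving out a 1-month array also kept it there. All fits draw on 7-day controls, which entered the choice of the gene. Without the 4 arrays with Aprt on the other side the difference was 1.08 (SE 0.26, limma adjusted p = 0.0618), against 1.21 (SE 0.21) in the main fit. The 7-day controls that remained numbered 4, which lowers the precision, and the estimate was lower as well. The controls left out, of litters 1 and 2, read 55.8 and 43.4 for Guca2b, below the 7-day control median of 73.5. The litter as a fixed replicate block left the Guca2b difference at 1.21 (limma adjusted p = 0.000173) and changed no other call of either gene. The other genotype and sex differences of both genes passed in no alternative.

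The sign of the Dnase1 sex difference was not stable, with values near 0. At 7 days it was -0.0108 with the mean over probe sets, -0.0642 without the 4 arrays, -0.25 without litter 4, and -0.16 to 0.20 with 1 array left out. At 1 month it was 0.22 with quantile normalization and -0.20 to 0.10 with 1 array left out.

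The size of the age changes followed the pseudocount and the probe set rule. With a pseudocount of 1 Dnase1 changed by 7.47 in controls and 7.46 in Aprt KO mice, and with one at the 40th percentile, 112, by 6.18 and 5.83. The mean over probe sets gave 3.50 and 3.40. Guca2b changed by 3.93 in controls and 2.97 in Aprt KO mice at the larger pseudocount.

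Counts of genes called moved by more than 1.5 times in these cases. For genotype at 7 days 185 genes became 500 with the litter as a fixed replicate block, 522 as a random one and 97 without the 4 arrays. For genotype at 1 month 18 became 28 and 7 with the pseudocounts of 1 and 112, 9 with the mean over probe sets, 79 and 117 with the fixed and random block, 1 with the arrays of that age only, 3 without the 4 arrays, and 4 to 19 with 1 array left out. For sex at 1 month 23 became 15 without a trend, 159 with no replicate block, 7 with the arrays of that age only, 40 without the 4 arrays, and 6 to 53 with 1 array left out. Except where fewer arrays entered, the cause was not tested.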
